A study of Homo sapiens and Rattus norvegicus with 26 samples.

Results

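The aryl hydrocarbon receptor (AHR) axis was followed through 4 cultured models of the endothelium and the blood-brain barrier (BBB) under high and low shear stress. It was taken as 6 genes picked by symbol, namely *AHR*, *ARNT*, *AHRR*, *CYP1A1*, *CYP1B1* and *TIPARP*, out of 43382 genes with counts in the human tables and 33289 in the rat table, where the rat genes were matched by upper-cased symbol. All 6 were found in each of the 4 tables, and all 6 had enough reads to be tested in every model. The hECs are endothelial cells made from the induced pluripotent stem cell (iPSC) line IMR90-4 through endothelial progenitors, without organ-specific character, and received the DMSO vehicle. The hCECs come from the same progenitors with the GSK3 inhibitor CHIR99021, which activates Wnt signaling and stayed in the medium of the flow chips. Both were grown in a serum-free endothelial medium with B-27, FGF2 and VEGF. The hBMEC-like cells were made from the same iPSC line by a protocol with CHIR99021, retinoic acid and FGF2 and were under flow in medium with neither retinoic acid nor FGF2. The rBMECs are primary cells from the brain microvessels of male Sprague-Dawley rats, with brains pooled within an isolation, purified with puromycin and grown in medium with serum, heparin and FGF2. High shear was 12 dyne/cm2 and low shear 0.1 dyne/cm2 in the sample labels, each for 72 h, whereas the study's methods state a higher value for low shear. Each human model had 3 libraries at high and 3 at low shear and the rBMECs had 4 and 4, in pairs by replicate number. The human pairs come from separate differentiations, whereas the study's text names fewer rat isolations than the 4 labelled pairs, so that some rat pairs may share an isolation. All human cells thus carry a single genome, and the medium differed between models, so that model and medium cannot be told apart.

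AHR is a transcription factor of the bHLH-PAS family that waits in the cytosol with chaperones until it binds an aromatic ligand, for example a polycyclic hydrocarbon or a tryptophan metabolite. It then enters the nucleus and pairs with ARNT, and the dimer binds DNA at dioxin response elements, which have the core GCGTG. *CYP1A1* and *CYP1B1*, which encode monooxygenases that oxidize such ligands, are its best-known targets and are also known to be induced by laminar shear in endothelial cells. *AHRR* and *TIPARP* are targets that act back on the receptor, since AHRR is a repressor that competes for ARNT, and TIPARP, a mono-ADP-ribosyltransferase, marks AHR for degradation. In the human brain microvasculature, CYP1B1 is known as a prominent cytochrome P450.

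The start regions of known targets are shown to mark where the letters of the core occur near an annotated start. RefSeq start regions on GRCh38.p14, from 250 bases before to 50 bases after an annotated start, were at hand for 5 of the 6 members in 8 windows, and *CYP1B1* had none. In the sequences below, written 5′ to 3′ on the strand of the gene, capitals mark the core GCGTG or its reverse complement CACGC, and no 2 matches overlapped. The first is the start of *CYP1A1* on the minus strand at chr15:74725479-74725778. The next is the most upstream of the *TIPARP* windows at hand, on the plus strand at chr3:156674340-156674639. The GENCODE start of that gene lies further upstream. The last is the most upstream of the *AHRR* windows at hand, on the plus strand at chr5:321464-321763.
CYP1A1: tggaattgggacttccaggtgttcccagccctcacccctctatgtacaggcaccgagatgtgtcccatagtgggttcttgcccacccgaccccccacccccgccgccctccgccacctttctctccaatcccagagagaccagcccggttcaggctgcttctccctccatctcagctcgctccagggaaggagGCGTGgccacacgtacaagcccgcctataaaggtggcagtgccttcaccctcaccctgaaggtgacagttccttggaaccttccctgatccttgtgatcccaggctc
TIPARP: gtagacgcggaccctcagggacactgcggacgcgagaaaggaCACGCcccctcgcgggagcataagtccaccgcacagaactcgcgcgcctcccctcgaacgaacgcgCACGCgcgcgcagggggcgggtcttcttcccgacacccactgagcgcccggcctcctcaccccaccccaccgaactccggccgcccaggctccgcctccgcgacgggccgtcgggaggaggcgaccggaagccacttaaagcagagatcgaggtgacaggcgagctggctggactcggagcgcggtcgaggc
AHRR: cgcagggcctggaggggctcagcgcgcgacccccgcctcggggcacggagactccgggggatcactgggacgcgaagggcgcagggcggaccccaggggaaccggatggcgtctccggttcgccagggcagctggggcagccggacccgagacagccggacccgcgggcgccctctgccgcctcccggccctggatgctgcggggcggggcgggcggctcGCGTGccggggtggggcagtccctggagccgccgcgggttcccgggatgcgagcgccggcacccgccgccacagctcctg
The core lay at base -57 of *CYP1A1*, at bases -208 and -142 of *TIPARP* and at base -30 of *AHRR*, counted from the start site to the first base of the match. A further *AHRR* window held it at bases -247 and -42, the *AHR* window held it at base 37, and the *ARNT* window and the other 2 *TIPARP* windows did not hold these letters. Of all 35116 start regions in the table, 36.5% held at least 1 match and 12.7% at least 2, so a match by itself is common. It describes the letters only, and binding was not measured. Sequence outside these windows was not searched, so response elements further from a start are not covered.

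The counts behind each gene were deep. Library totals ran from 25269733 to 47006272 counts in hECs, 26297516 to 38604498 in hBMEC-like cells, 25727387 to 38166280 in rBMECs and 9790999 to 32225360 in hCECs. Low-shear replicate 2 of the hCECs stood apart, with the lowest total but 36388 genes detected against 20072 to 20519 in the other hCEC libraries, and most hCEC values of the members are therefore also given without replicate 2. Endothelial markers matched the labels of 3 models, with *PECAM1*, an endothelial adhesion molecule, at 1782 to 2537 CPM in hECs, 1657 to 2807 CPM in hCECs and 1422 to 3579.8 CPM in rBMECs. In hBMEC-like cells *PECAM1* was at most 0.228 CPM, but the endothelial markers *CDH5* and *TEK* were detected, at 29.3 to 45.3 and 21.1 to 35.9 CPM. The 7 endothelial markers together summed to 61.4 to 86.6 CPM there, against 8733 to 15647 CPM in the other models. *KRT8*, a keratin of epithelia, was between 4399 and 5668 CPM in hBMEC-like cells, so the data go against an endothelial identity of these cells. In this bulk RNA, fewer cells of a type and less RNA per cell cannot be told apart. CPM here are read counts scaled to a common library size after TMM normalization within a model.

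The receptor was abundant in both endothelial iPSC models and low in hBMEC-like cells. At low shear, *AHR* stood at 222, 223 and 219.6 CPM in replicates 1 to 3 of the hECs and at 247, 241 and 243 CPM in those of the hCECs, but at 22.3, 26.2 and 23.2 CPM in hBMEC-like cells. The rBMECs had 56.9, 42.2, 63.4 and 118 CPM of *Ahr*, which lies between these groups and overlaps none of them. Rat and human levels were not tested against each other, because species, annotation and model cannot be told apart. In a joint fit of the human models at low shear, *AHR* was lower in hBMEC-like cells than in hECs by a log2 difference of -3.40 ± 0.11 (SE, n = 3 and 3, edgeR adjusted p = 3.73e-07) and lower than in hCECs by -3.51 ± 0.11 (adjusted p = 4.88e-07), or -3.57 ± 0.08 without hCEC replicate 2. hCECs and hECs did not differ detectably in *AHR* at low shear (log2 difference 0.11, 95% interval -0.12 to 0.35, and 0.17 without hCEC replicate 2).

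*ARNT*, the shared partner of AHR and of the hypoxia factors, was nearly even over the human models. At low shear the hBMEC-like cells had 52.2 ± 0.518 CPM (SD, n = 3), which lay between the 49.5 ± 4.82 CPM of the hCECs and the 54.9 ± 2.69 CPM of the hECs, and the groups overlapped. In the joint fit *ARNT* was not called at low shear, but without hCEC replicate 2 it was called lower in hBMEC-like cells than in hECs (log2 difference -0.26 ± 0.06, adjusted p = 0.00489) and than in hCECs (-0.22 ± 0.07, adjusted p = 0.0217). *Arnt* was at 83.8, 126, 101.9 and 85.4 CPM in low-shear rBMECs. As a ratio of CPM per kilobase of the counted gene length, *AHR* over *ARNT* was 2.64 to 3.44 in the 6 hEC libraries, 3.70 to 5.22 in the 6 hCEC libraries and 0.331 to 0.483 in the 6 hBMEC-like libraries. In rBMECs that ratio ran from 0.281 to 1.84 with a median of 0.4285. *Ahr* exceeded *Arnt* per length only in high-shear replicate 1 and in low-shear replicate 4 (1.157). Among the human models the order of receptor and partner was therefore turned around only in hBMEC-like cells, where every library had less *AHR* than *ARNT* per length. Most rat libraries shared that order.

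*AHRR* showed the widest gap of the 6 genes between human models. Low-shear hECs had 82.5, 92.1 and 83.6 CPM, the hCECs 95.2, 91.9 and 102.7 CPM and the hBMEC-like cells only 3.06, 3.46 and 2.22 CPM, against 17.1, 5.23, 22.5 and 21.1 CPM of *Ahrr* in rBMECs. Against hECs the log2 difference of the hBMEC-like cells was -5.08 ± 0.18 (SE, adjusted p = 4.42e-07), and against hCECs -5.22 ± 0.18 (adjusted p = 4.91e-07), or -5.31 ± 0.15 without hCEC replicate 2. Repressor relative to receptor was also lower, with *AHRR* over *AHR* per length at 0.0998 to 0.196 in hBMEC-like cells, 0.411 to 0.5996 in hECs and 0.393 to 0.553 in hCECs. The rBMECs, at 0.139 to 0.399, overlapped the hBMEC-like and hCEC ranges.

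The targets were high in the endothelial models as well. *CYP1A1* was at 689, 681 and 730.2 CPM in low-shear hECs and at 1350.3, 1071 and 1152 CPM in low-shear hCECs, with no overlap, and at 129, 109.6 and 89.3 CPM in hBMEC-like cells. *Cyp1a1* in rBMECs was spread from 116 to 428 CPM at low shear. For *CYP1B1* at low shear the hECs had 365, 362 and 212 CPM, the hCECs 539.9, 382 and 311 CPM and the hBMEC-like cells 81.1, 45.5 and 43.0 CPM, and *Cyp1b1* in rBMECs was at 694, 249, 656 and 607 CPM. For *TIPARP* the hECs had 101, 112 and 99.1 CPM, the hCECs 123, 76.2 and 111 CPM and the hBMEC-like cells 37.1, 34.4 and 30.4 CPM. Relative to hECs at low shear, hBMEC-like cells were lower by a log2 difference of -2.87 ± 0.20 (SE) for *CYP1A1*, -2.66 ± 0.35 for *CYP1B1* and -1.80 ± 0.20 for *TIPARP*, with edgeR adjusted p-values of 8.33e-06, 3.29e-04 and 1.28e-04.

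Read against all genes, these differences between models stood in a wide background. At low shear 5 of 6 members differed between hBMEC-like cells and hECs, where 47.8% of all genes tested were called, and 5 of 6 between hBMEC-like cells and hCECs, against 46.9%. All 5 were lower in hBMEC-like cells in both comparisons. These backgrounds depended on hCEC replicate 2, which is part of the joint fit. Without it, 12303 of 17714 genes were called against hECs and 11965 against hCECs, with *ARNT* then called as well. The median log2 difference of the 6 members from hECs at low shear was -2.76 and that of all genes tested 0.02. At high shear the counts were 6 of 6 against hECs (background 70.2%) and 5 of 6 against hCECs (71.1%). The member added there was *ARNT*, at 54.2 CPM in hECs and 51.2 CPM in hBMEC-like cells (log2 difference -0.24 ± 0.08, adjusted p = 0.0259). Its adjusted p ran from 0.0103 to 0.284 over the alternatives, and the call was lost with library totals alone and without hEC replicate 1 or hBMEC-like replicate 1 or 2.

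The hCECs had more *CYP1A1*, *CYP1B1*, *AHR* and *TIPARP* than the hECs at high shear. At low shear no member was called between hCECs and hECs by edgeR (3.73% of all genes were), and no other tool was run on levels. An unadjusted p under 0.05 was found for 1 of the 6, beside 22.3% of all genes. That 1 was *CYP1A1*, at a log2 difference of 0.75 ± 0.19 (adjusted p = 0.0763), and without hCEC replicate 2 it was called at 0.86 ± 0.14 (adjusted p = 0.00385). At high shear 4 of 6 members were higher in hCECs than in hECs, against 30% of all genes called in either direction. *CYP1A1* was higher by 1.28 ± 0.14 on the log2 scale (SE, adjusted p = 1.15e-04) and *CYP1B1* by 1.28 ± 0.26 (adjusted p = 0.00437). *AHR* was higher by 0.54 ± 0.11 (adjusted p = 0.00464) and *TIPARP* by 0.50 ± 0.11 (adjusted p = 0.00579). Without hCEC replicate 2 the same 4 differences were 1.17, 1.26, 0.47 and 0.47, in that order, with adjusted p-values from 4.99e-04 to 0.0255.

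**Figure D1:**
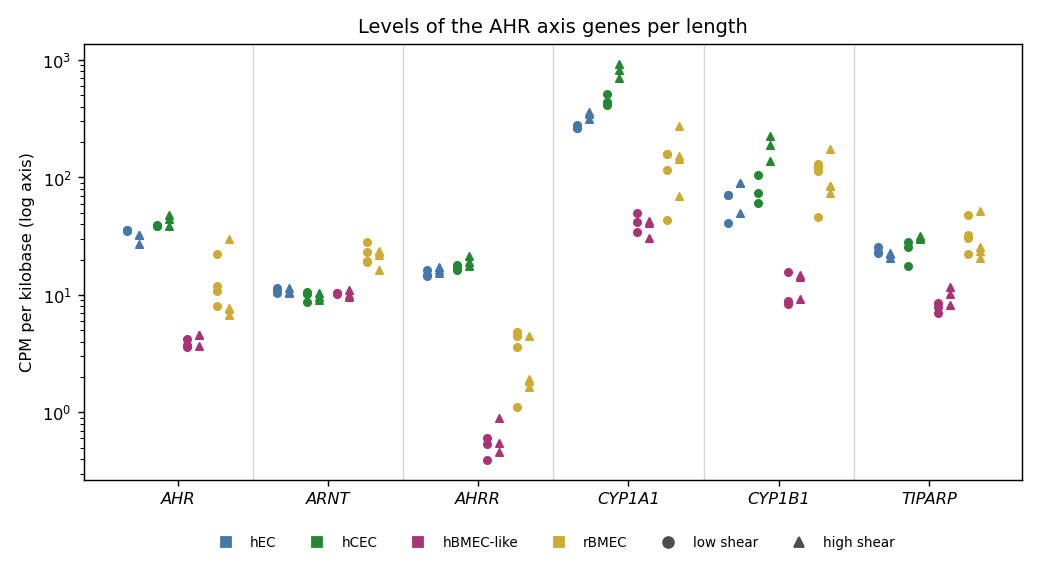
Level of each AHR axis gene per length, in CPM per kilobase of the counted gene length on a log axis, for every library of the 4 models, with circles for low and triangles for high shear. The hBMEC-like libraries lie below those of the other models for *AHR*, *AHRR*, *CYP1B1* and *TIPARP* and overlap only rBMECs for *CYP1A1*, while the human models overlap for *ARNT*.

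Among the members, *CYP1A1* had the highest group mean per length in every model. In rBMECs this did not hold for each library, since *Cyp1b1* exceeded *Cyp1a1* in low-shear replicates 1 and 2 and in high-shear replicate 4. In low-shear hECs the order of mean CPM per kilobase was *CYP1A1* at 269, *CYP1B1* at 60.8, *AHR* at 35.5, *TIPARP* at 23.9, *AHRR* at 15.2 and *ARNT* at 10.9, and no neighbours in this order overlapped. The hCECs had the same order at low shear, from 458 for *CYP1A1* to 9.84 for *ARNT*, and there *TIPARP* and *AHRR* overlapped. In hBMEC-like cells the order at low shear was *CYP1A1* at 41.9, *CYP1B1* at 11.0, *ARNT* at 10.4, *TIPARP* at 7.79, *AHR* at 3.83 and *AHRR* at 0.515, with overlap of *CYP1B1* with both *ARNT* and *TIPARP*. In low-shear rBMECs *Cyp1a1* at 119 and *Cyp1b1* at 102.6 overlapped fully, followed by *Tiparp* at 33.1, *Arnt* at 22.4, *Ahr* at 13.3 and *Ahrr* at 3.51. There *Tiparp* overlapped both cytochrome genes as well as *Arnt* and *Ahr*, and *Arnt* overlapped *Ahr*, so that only *Ahrr* lay apart. *CYP1A1* over *CYP1B1* per length was 3.52 to 6.98 in hECs, 3.62 to 7.34 in hCECs, 2.86 to 4.77 in hBMEC-like cells and 0.891 to 1.77 in rBMECs, so no rat library reached the range of a human model.

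*CYP1A1* was also among the most abundant transcripts of the whole endothelial libraries. By mean CPM per kilobase it ranked 26 of 23210 detected genes in high-shear hCECs and 84 of 24287 in high-shear hECs. At low shear it ranked 69 in hCECs and 129 in hECs. In hBMEC-like cells it ranked 1499 at high and 1345 at low shear, and in rBMECs *Cyp1a1* ranked 361 and 511. *AHRR*, at the other end, ranked 12931 of 25107 detected genes in high-shear hBMEC-like cells.

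High shear raised both cytochrome genes in hECs by a modest amount. *CYP1A1* went from 689, 681 and 730.2 CPM at low shear to 822, 936 and 907 CPM at high shear in replicates 1 to 3, so that all 3 pairs rose and the groups did not overlap. Its log2 fold change was 0.34 ± 0.08 (SE, n = 3 pairs, edgeR adjusted p = 0.0278), a 1.27-fold rise. *CYP1B1* went from 365, 362 and 212 CPM to 461.9, 466.02 and 257.5 CPM. All 3 pairs rose by a similar ratio, but the groups overlapped, because replicate 3 was low at both shear levels. The log2 fold change of *CYP1B1* was 0.33 ± 0.07 (adjusted p = 0.0187). These were 2 of 6 members called, against 16.1% of all genes in hECs. Both calls were lost without replicate 1 (adjusted p = 0.156 for *CYP1A1* and 0.162 for *CYP1B1*) and without replicate 2 (0.111 and 0.0632), while the fold changes stayed between 0.28 and 0.39.

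The receptor moved the other way in hECs without passing the threshold. *AHR* was at 222, 223 and 219.6 CPM at low shear and at 202, 200.5 and 169.8 CPM at high shear, lower in all 3 pairs and with no overlap, yet its log2 fold change of -0.22 ± 0.08 had an adjusted p of 0.102. *TIPARP* was likewise lower in all 3 pairs, at 97.1, 99.0 and 90.0 CPM against 101, 112 and 99.1 CPM, with a log2 fold change of -0.12 ± 0.07 (adjusted p = 0.275). *AHRR* was higher in all 3 pairs but was not called, with a log2 fold change of 0.10 (95% interval -0.06 to 0.25). *ARNT* was higher in 1 pair and lower in 2, with a log2 fold change of -0.02 (-0.21 to 0.17). For 3 members the groups did not overlap, 1 above and 2 below, where 30.9% of the genes with a mean of at least 1 CPM did not. The summed CPM of 7 endothelial markers also differed between shear levels in hECs, at 9472 to 11015 at high and 12202 to 13057 at low shear with none at 0, and their part in these values was not tested. The 7 epithelial markers summed to 86.6 to 156 CPM at high and 154 to 340.1 CPM at low shear, ranges that just overlap. Of these, *KRT8* was at 23.9 to 180 CPM and *KRT18* at 57.5 to 151 CPM over the hEC libraries, and the others at most 6.13 CPM. The 4 astrocyte and oligodendrocyte markers were low but did not overlap, at 7.15 to 13.99 CPM at high and 2.82 to 5.09 CPM at low shear, with 1 to 3 of them at 0 in a library. Nearly all of that sum was *MBP*, at 2.63 to 13.99 CPM, and the others were at most 0.219 CPM.

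In hCECs high shear raised *CYP1B1*, the largest estimated change of any member in any model. It went from 539.9, 382 and 311 CPM at low shear to 1164, 967 and 709 CPM at high shear, higher in all 3 pairs by 1.11 to 1.34 on the log2 scale and with no overlap. The log2 fold change was 1.21 ± 0.19 (SE, n = 3 pairs, adjusted p = 0.00982), a 2.32-fold rise with a 95% interval from 1.73-fold to 3.11-fold. Without replicate 2 it was 1.16 ± 0.08 (adjusted p = 6.62e-08), and DESeq2 gave 1.27 (adjusted p = 3.77e-17). The call was lost without replicate 1 (adjusted p = 0.191) or replicate 3 (0.328), fits that keep the library standing apart, and without the filter on low counts (0.335).

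*CYP1A1* in hCECs was higher at high shear in all 3 pairs but was not called in the main test. It was at 1350.3, 1071 and 1152 CPM at low shear and at 2128, 2419 and 1839 CPM at high shear, a gap without overlap. Its log2 fold change was 0.83 ± 0.22 (adjusted p = 0.103). Without replicate 2 the change was smaller but far more even, at 0.67 ± 0.08 (adjusted p = 1.22e-05), and DESeq2 on all libraries gave 0.89 (adjusted p = 1.90e-06). With replicate 2 kept and another left out, the adjusted p was 0.840 to 0.892. *TIPARP* was at 123, 76.2 and 111 CPM at low and at 132, 138 and 129 CPM at high shear, with a log2 fold change of 0.39 ± 0.18 (adjusted p = 0.373) that went to 0.17 ± 0.09 without replicate 2 (adjusted p = 0.280), so that most of its size came from that pair.

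The receptor, its repressor and *ARNT* were not called with shear in hCECs. *AHR* was at 247, 241 and 243 CPM at low and at 279, 298 and 243.5 CPM at high shear and had a log2 fold change of 0.16 (95% interval -0.20 to 0.53), *AHRR* of 0.18 (-0.12 to 0.48) and *ARNT* of -0.02 (-0.28 to 0.25), and none passed the test. Without replicate 2 these were 0.10 for *AHR*, 0.16 for *AHRR* and -0.05 for *ARNT*, and none passed it either. *AHRR* was higher at high shear in all 3 pairs, and *AHR* in replicates 1 and 2, with replicate 3 even. With all replicates, the intervals of *AHR* and *AHRR* do not exclude changes as large as those called for the cytochrome genes in hECs. In all, 1 of 6 members was called by edgeR, against 3.23% of all genes, and 2 of 6 by DESeq2, against 2.83%. The groups did not overlap for 3 members, all higher at high shear, where 21.3% of genes with a mean of at least 1 CPM did not. The 7 epithelial markers summed to 45.0 to 70.9 CPM at high and 80.6 to 92.0 CPM at low shear, with 0 to 3 of them at 0 in a library. *KRT18* was the highest of them in every hCEC library, at 39.9 to 75.2 CPM, and the others were at most 18.1 CPM. Their part was not tested.

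**Figure D2:**
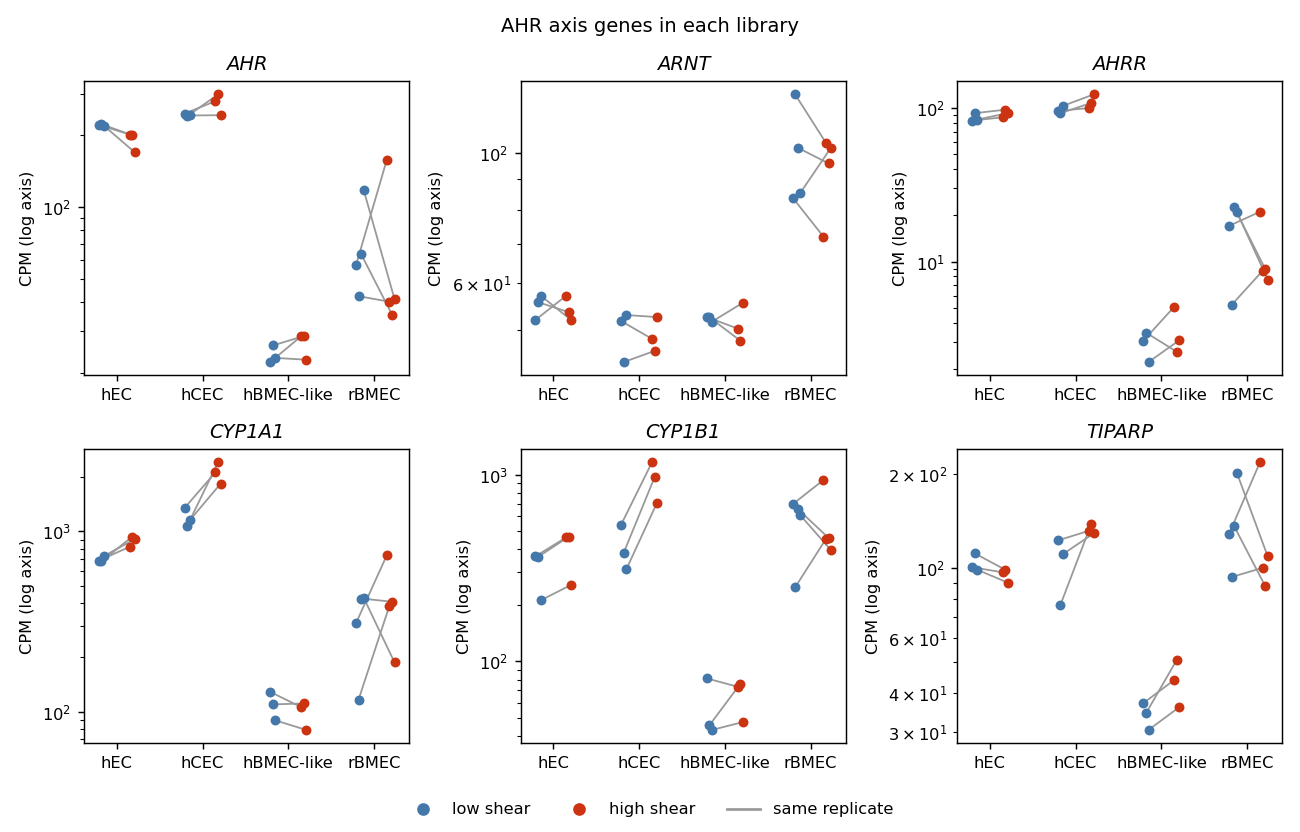
CPM of each gene in every library on a log axis, by model, with blue points for low and red points for high shear and grey lines joining the libraries of a replicate. All 3 hCEC lines rise for *CYP1A1* and *CYP1B1*, and the rBMEC lines run both ways for each gene.

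In hBMEC-like cells it was *TIPARP* that rose. It was at 37.1, 34.4 and 30.4 CPM at low shear and at 43.97, 51.0 and 36.0 CPM at high shear. All 3 pairs were higher at high shear, although the groups overlapped by the third pair. The log2 fold change was 0.35 ± 0.07 (SE, n = 3 pairs, edgeR adjusted p = 7.79e-04), a 1.28-fold rise, and DESeq2 gave an adjusted p of 0.00666. Without replicate 2, the pair with the widest change, it was 0.24 ± 0.08 (adjusted p = 0.0615). This was 1 of 6 members, against 15% of all genes called in these cells.

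Neither cytochrome gene was called in hBMEC-like cells in the main test. *CYP1A1* was at 129, 109.6 and 89.3 CPM at low and at 106, 111 and 79.1 CPM at high shear, with a log2 fold change of -0.15 ± 0.05 (adjusted p = 0.0530). It had 2 pairs that were lower and 1 that was nearly even. It was called as lower without replicate 2 (-0.23 ± 0.06, adjusted p = 0.0148), with library totals only (0.0349) and without the filter on low counts (0.0251), and it was -0.08 ± 0.06 without replicate 1 (0.451), so that both cytochrome genes depended on single pairs. *CYP1B1* was at 81.1, 45.5 and 43.0 CPM at low and 73.2, 75.8 and 47.4 CPM at high shear, and the log2 fold change of 0.23 ± 0.09 (adjusted p = 0.0857) became 0.44 without replicate 1 (adjusted p = 2.92e-06), 0.23 and called without the filter (adjusted p = 0.00196), and -0.01 without replicate 2 (adjusted p = 0.960). *AHR* had a log2 fold change of 0.15 (95% interval -0.01 to 0.32) and *ARNT* of -0.03 (-0.15 to 0.10). *AHRR*, at 2.22 to 5.08 CPM over the 6 libraries, gave 0.28 (-0.20 to 0.75).

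No group of a member was free of overlap in hBMEC-like cells, where 20.03% of genes with a mean of at least 1 CPM were. Some marker sums moved with shear in these cells. The 7 markers of smooth muscle and pericytes summed to 620.2 to 879 CPM at high and 469 to 615 CPM at low shear, with 1 at 0 in each library, and the 5 markers of pluripotent cells summed to 496 to 557 CPM at high and 609.5 to 638 CPM at low shear. The 4 astrocyte and oligodendrocyte markers summed to 36.1 to 40.9 CPM at high and 30.5 to 35.5 CPM at low shear, and the 3 neuron markers to 11.7 to 22.9 CPM and 8.10 to 11.3 CPM. Single genes carried some of these sums. *LIN28A* was at 438 to 577 CPM and *DPPA4* at 41.5 to 55.7 CPM. *POU5F1*, *SOX2* and *NANOG* were at most 0.0759, 5.33 and 8.99 CPM. *MBP* was at 30.2 to 40.5 CPM, and *GFAP* and *AQP4* at most 0.321 and 0.341 CPM. *SYT1* was at 6.28 to 20.9 CPM, and *RBFOX3* and *SNAP25* at most 1.14 and 1.30 CPM. The part of these markers in the values of the members was not tested.

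The rBMECs had no member called, by edgeR or by DESeq2, against 0.125% of all genes called by edgeR and 2.15% by DESeq2. No member had an unadjusted p under 0.05 in either, where 9.38% of all genes did by edgeR. *Cyp1a1* was at 309, 116, 424 and 428 CPM at low shear and at 738, 386, 407 and 187 CPM at high shear in replicates 1 to 4. Replicates 1 and 2 thus had more at high shear, replicate 3 was nearly even, and replicate 4 had less. The log2 fold change was 0.45 ± 0.47 with a 95% interval from -0.66 to 1.55. It was 0.99 without replicate 4, -0.00 without replicate 2 and 0.14 without replicate 1, so the 4 pairs allowed neither a direction nor a size.

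The other rat genes also differed in direction between replicates. These directions, like those of *Cyp1a1*, take libraries of the same replicate number as pairs. Over all genes kept, deviations of high-shear replicate 1 correlated best with low-shear replicate 4 (r = 0.458). Those of high-shear replicate 4 correlated best with low-shear replicate 2 (0.447) and at 0.0825 with low-shear replicate 4. What other pairs would give was not tested. *Cyp1b1* was at 694, 249, 656 and 607 CPM at low and 936, 453, 459 and 394 CPM at high shear, and its log2 fold change was 0.04 ± 0.26. *Ahr* was at 56.9, 42.2, 63.4 and 118 CPM at low and 158, 40.0, 35.3 and 41.0 CPM at high shear (log2 fold change -0.27 ± 0.45). High-shear replicate 1 and low-shear replicate 4 thus held the highest *Ahr* of their groups. The same libraries were highest for *Tiparp*, at 218.6 and 203 CPM against 87.9 to 136 CPM in the other 6. *Ahrr* was at 17.1, 5.23, 22.5 and 21.1 CPM at low and 21.1, 8.70, 8.98 and 7.65 CPM at high shear, and its log2 fold change of -0.45 had an interval from -1.39 to 0.50. *Arnt* was at 83.8, 126, 101.9 and 85.4 CPM at low and 72.0, 103.9, 95.8 and 101.999 CPM at high shear, lower in replicates 1 to 3 and higher in replicate 4, with a log2 fold change of -0.08 ± 0.11. *Ahrr*, *Cyp1a1*, *Cyp1b1* and *Tiparp* each had 2 pairs that were higher and 2 that were lower, and *Ahr* and *Arnt* 1 that was higher and 3 that were lower. Without replicate 1, *Ahr* had a log2 fold change of -0.82 ± 0.24 (adjusted p = 0.202) and *Tiparp* of -0.47 ± 0.18 (adjusted p = 0.330).

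High-shear replicate 1 of the rBMECs differed from the other rat libraries in cell type markers too. Its 7 endothelial markers summed to 8733 CPM, against 12144 to 15647 CPM in the other 7 libraries, and its 7 smooth muscle and pericyte markers summed to 322 CPM, against 70.9 to 216 CPM, with none of either list at 0. Most of the latter sum was *TAGLN* and *ACTA2*, at 44.1 to 234 and 15.8 to 59.0 CPM over the rat libraries. *RGS5* and *PDGFRB* were at most 1.63 and 5.70 CPM, and *MYH11*, *CNN1* and *CSPG4* at most 3.25, 7.32 and 15.1 CPM. Low-shear replicate 4, the other library with high *Ahr*, had the next lowest endothelial sum at 12144 CPM but only 80.7 CPM of the smooth muscle and pericyte markers. How these marker levels relate to the *Ahr* values was not tested.

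**Figure D3:**
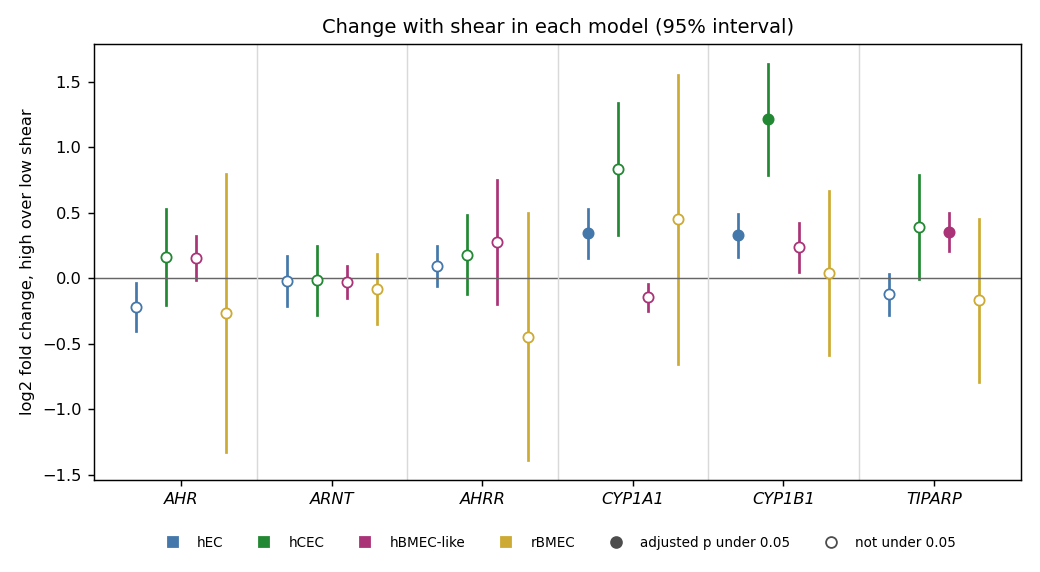
log2 fold change of each gene, high over low shear, in the 4 models with its 95% interval, with filled points for an edgeR adjusted p under 0.05 and open points otherwise. The filled points are *CYP1A1* and *CYP1B1* in hECs, *CYP1B1* in hCECs and *TIPARP* in hBMEC-like cells, and the rBMEC intervals are the widest for every gene.

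Whether a response differed between models was tested directly. Between hBMEC-like cells and hECs, 2 of 6 members differed, against 13.6% of all genes. The response of *CYP1A1* was lower in hBMEC-like cells by 0.48 on the log2 scale (-0.48 ± 0.10, adjusted p = 0.0116), and that of *TIPARP* was higher by 0.48 ± 0.11 (adjusted p = 0.0142), so that these targets went apart in opposite directions. *AHR* came close at 0.38 ± 0.11 (adjusted p = 0.0507). The difference for *CYP1B1* was -0.08, with an interval from -0.50 to 0.33 that does not exclude a difference as large as the change in hECs. With each replicate of either model left out, the differences stayed between -0.57 and -0.41 for *CYP1A1* and between 0.37 and 0.54 for *TIPARP*. Each call was still lost without some pairs of high- and low-shear libraries of the hBMEC-like cells. That of *CYP1A1* was lost without their replicate 1 (adjusted p = 0.0661) or 3 (0.0614), and that of *TIPARP* without their replicate 2 (0.0566).

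Between hBMEC-like cells and hCECs, 1 of 6 differed, against 4.54% of all genes. The response of *CYP1A1* was lower in hBMEC-like cells, with a difference of -1.06 ± 0.20 (adjusted p = 0.0336), and without hCEC replicate 2 it was -0.82 ± 0.09 (adjusted p = 1.47e-05). It was not called without any of the 3 hBMEC-like replicates (adjusted p = 0.238 to 0.317), fits that kept hCEC replicate 2. *CYP1B1* had a difference of -1.05 ± 0.24 (adjusted p = 0.0582) that was called without hCEC replicate 2 (-0.92 ± 0.17, adjusted p = 0.00180). *TIPARP* did not differ detectably, at -0.11 with an interval from -0.64 to 0.42, and without hCEC replicate 2 the difference was 0.18 (-0.05 to 0.42), of the other sign.

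Between hCECs and hECs no member was called by edgeR, where 0.759% of all genes were, although 4 of 6 had an unadjusted p under 0.05 (10.3% of all genes did). *CYP1B1* was nearest, with a response larger in hCECs by 0.91 ± 0.18 on the log2 scale (adjusted p = 0.0576), and without hCEC replicate 2 by 0.83 ± 0.11 (adjusted p = 0.00433). *CYP1A1* had a difference of 0.52 ± 0.22 (adjusted p = 0.470) that was 0.33 ± 0.11 without that replicate (adjusted p = 0.204). *AHR* differed by 0.41 ± 0.17 (adjusted p = 0.446) and *TIPARP* by 0.54 ± 0.21 (adjusted p = 0.421), and both were lower at high shear in every hEC pair. In hCECs *TIPARP* was higher in every pair, while *AHR* was higher in replicates 1 and 2 and even in replicate 3 (log2 change 0.004). Without hCEC replicate 2 the differences between the models were 0.32 ± 0.12 for *AHR* (adjusted p = 0.266) and 0.29 ± 0.11 for *TIPARP* (adjusted p = 0.242).

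In the 3 comparisons with rBMECs no member was called by edgeR. The background was 4.01% against hECs, 1.55% against hCECs and 0.0369% against hBMEC-like cells. In that order, an unadjusted p under 0.05 was found for 17%, 12.8% and 9.92% of all genes and for 0, 1 and 0 members. That member was *CYP1B1*, with a response lower in rBMECs than in hCECs by a log2 difference of -1.20 ± 0.37 (adjusted p = 0.171), or -1.11 ± 0.42 without hCEC replicate 2 (0.397). For *CYP1A1* the interval of the difference between rBMECs and hECs ran from -1.26 to 1.47, wide enough to hold the whole change seen in hCECs in either direction. Other tools were not run on these differences.

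As a list, the members had a median log2 fold change with shear of 0.04 in hECs, 0.28 in hCECs, 0.19 in hBMEC-like cells and -0.13 in rBMECs, beside medians over all genes tested of 0.00, -0.02, -0.00 and -0.01. In the main test *CYP1A1* and *CYP1B1* were called in hECs, *CYP1B1* in hCECs and *TIPARP* in hBMEC-like cells. Neither *ARNT* nor *AHR* nor *AHRR* was called with shear in any model or under any alternative.

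**Figure D4:**
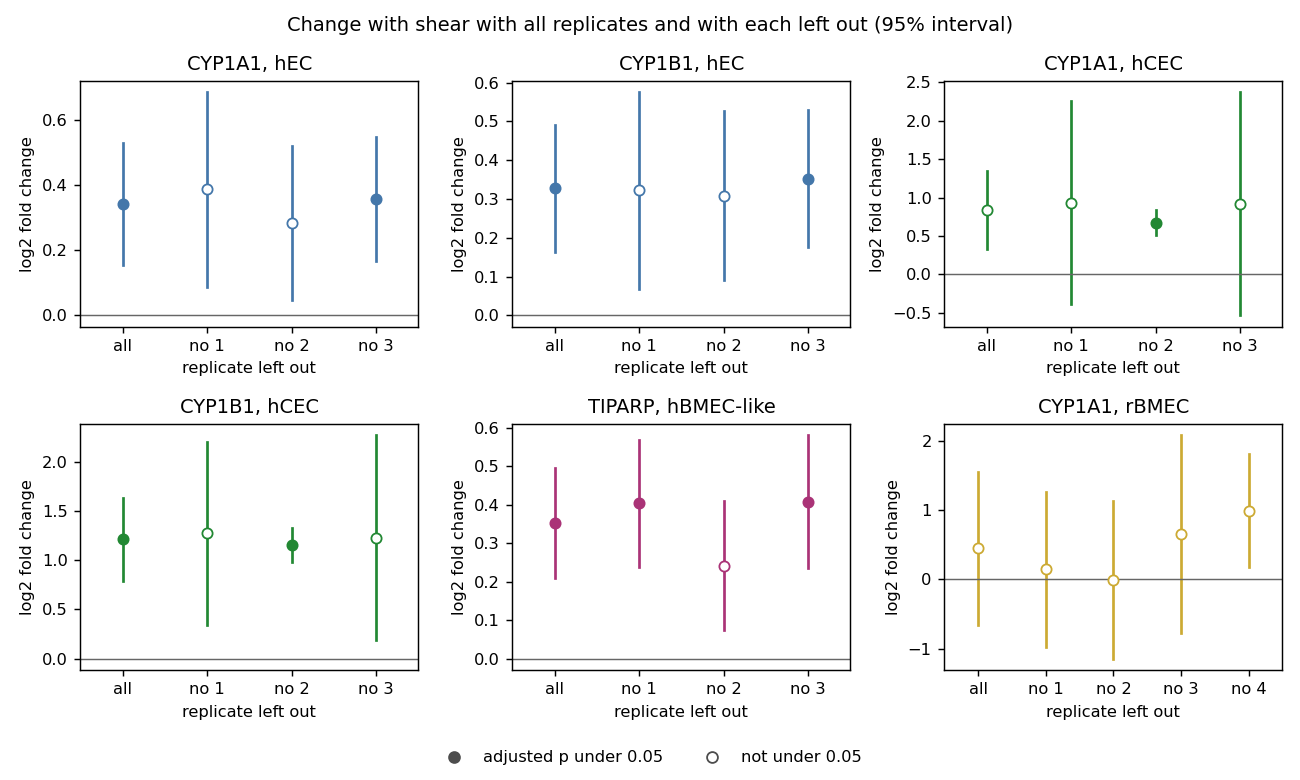
log2 fold change with its 95% interval, with all replicates and with each replicate left out, for *CYP1A1* and *CYP1B1* in hECs and hCECs, *TIPARP* in hBMEC-like cells and *CYP1A1* in rBMECs, with filled points for an adjusted p under 0.05. Leaving out hCEC replicate 2 shortens the intervals of both hCEC genes, and the rBMEC value moves from -0.00 to 0.99.

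Around the 6 members, 26 further genes of the pathway were read off the same fits, of which 18 were tested in hECs, 18 in hCECs, 19 in hBMEC-like cells and 18 in rBMECs. In hECs 2 rose and 2 fell, or 4 of 18, beside 16.1% of all genes, and DESeq2 called 3. *NQO1*, a quinone reductase that is a target of AHR and of NRF2, went from 269 ± 96.7 to 701 ± 218 CPM (SD, n = 3), a log2 fold change of 1.40 ± 0.07 (SE, edgeR adjusted p = 1.01e-04). *CYP2S1*, a further cytochrome P450, rose by 0.73 ± 0.14 (adjusted p = 0.0145). *SLC7A5*, which encodes a transporter of large neutral amino acids such as tryptophan, had a log2 fold change of -2.64 ± 0.51 (adjusted p = 0.0132), with values from 3.54 to 158 CPM over the 6 libraries. *ARNT2*, a paralog of *ARNT*, had one of -1.06 ± 0.28 (adjusted p = 0.0442, DESeq2 adjusted p = 0.0870) at 2.698 CPM at low and 1.27 CPM at high shear.

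*NQO1* rose in hCECs as well, from 199 ± 58.2 to 502 ± 168 CPM, with a log2 fold change of 1.33 ± 0.22 (adjusted p = 0.0132), and *AFMID*, an enzyme of kynurenine formation, fell by 1.09 on the log2 scale (adjusted p = 0.0401, DESeq2 adjusted p = 0.417). These were 1 that rose and 1 that fell of 18, beside 3.23% of all genes, and DESeq2 called 1. Without hCEC replicate 2 the log2 fold changes were 1.25 ± 0.15 for *NQO1* (adjusted p = 1.66e-05) and -1.07 ± 0.17 for *AFMID* (adjusted p = 3.99e-04), while *AFMID* was not called without replicate 1 (0.549) or 3 (0.295) nor *NQO1* without replicate 3 (0.0760). In hBMEC-like cells 6 rose and 1 fell of 19, beside 15% of all genes, and DESeq2 called 5, without *ARNTL* (DESeq2 adjusted p = 0.116) and *NFE2L2* (0.0513). *EPAS1* and *HIF1A*, which encode hypoxia factors that also pair with ARNT, rose by 0.47 ± 0.04 (adjusted p = 2.64e-08) and 0.26 ± 0.04 (adjusted p = 5.56e-05). *NQO1* rose by 0.57 ± 0.07 (adjusted p = 1.44e-06) and *SLC7A5* by 0.27 ± 0.04 (adjusted p = 5.61e-06). The gene that fell was again *ARNT2*, with a log2 fold change of -0.55 ± 0.09 (adjusted p = 7.50e-05). In rBMECs 0 of 18 were called by edgeR, beside 0.125% of all genes, and DESeq2 called 0. An unadjusted p under 0.05 was found for 2 of the 18, beside 9.38% of all genes. *Nqo1* there ranged from 552 to 3253 CPM.

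The members varied together only in part over the human libraries. With the mean of each model taken off log2(CPM + 1), the genes whose level was most like that of *CYP1A1* over the 18 human libraries, out of 12069 genes with at least 1 CPM in each human model, were *AHCYL1* (Pearson r = 0.913), *CDV3* (0.890) and *ICAM1* (0.888). *CYP1B1* came at rank 113 with an r of 0.775, *TIPARP* at rank 1268 with 0.544 and *AHR* at rank 3995 with 0.265. The genes most like *CYP1B1* were *SLC3A2* (0.916), *MFSD11* (0.877) and *SPSB1* (0.866). These values describe 18 libraries that share differentiations and shear levels, and carry no test. *ICAM1*, an adhesion molecule of inflamed endothelium, was at 83.0 CPM at low and 318 CPM at high shear in hCECs and at 2.16 and 2.45 CPM in hBMEC-like cells.

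In GENCODE release 44 on GRCh38, *AHR* lies at chr7:16916359-17346152, *AHRR* at chr5:321714-438291 and *TIPARP* at chr3:156673235-156706770 on the plus strand. *ARNT* lies at chr1:150809713-150876708, *CYP1A1* at chr15:74719542-74725536 and *CYP1B1* at chr2:38066973-38109902 on the minus strand. Since the strand setting of the counting is not given in the sources used here, reads of overlapping antisense genes cannot be told apart from those of a member. The overlapping genes that the tables list were low. *RMDN2* and *CYP1B1-AS1*, on the strand opposite to *CYP1B1*, reached at most 5.89 and 1.79 CPM in any human library, and *TIPARP-AS1* at most 2.86 CPM. A read-through gene, *PDCD6-AHRR*, shares exons with *AHRR* in the annotation, so the *AHRR* counts can hold or lack reads of both.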

How the data were processed

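Messenger RNA of 26 cultures was sequenced as 1 library each, as poly(A) RNA with paired ends. Per the study's methods and labels, the authors aligned reads with STAR to hg38 or, for rat, rn7 as the methods state (the labels name hg38 throughout), and counted them with featureCounts. The deposited values are raw counts per gene, not normalized. Genes listed with no values, 6 human and 5 rat, were left out, and 0 columns went unused. No library duplicated another.

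High and low shear were compared within each model with edgeR 4.0.16 in R 4.3.3: the filter filterByExpr (minimum count 10, total 15), TMM, quasi-likelihood F test, Benjamini-Hochberg adjustment over all genes kept and a call at an adjusted p under 0.05. The replicate number was a block, since the study pairs the cultures of a differentiation or isolation. Deviations from group means of same-numbered libraries correlated at r = 0.261 to 0.502 in hECs, 0.0838 to 0.197 in hCECs, 0.263 to 0.525 in hBMEC-like cells and 0.0825 to 0.480 in rBMECs, where high-shear replicate 1 correlated best with low-shear replicate 4 (0.458) and high-shear replicate 4 with low-shear replicate 2 (0.447). SE is the log2 fold change over the square root of F, as an absolute value. Responses were compared as interactions in joint fits of 2 models, and levels in a joint fit of the 9 human libraries at 1 shear level, without block. DESeq2 1.42.0, other scalings, no filter, no block and leaving out each replicate were the alternatives. P-values measure the spread between differentiations of 1 iPSC line or between rat cultures. The fits were tested on simulated data.

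The members and lists were chosen with earlier results of these data known. Named in the text are the 6 members, up to 4 called pathway genes of smallest p per model, and the 3 genes most like *CYP1A1* and *CYP1B1*. *RMDN2*, *CYP1B1-AS1*, *TIPARP-AS1* and *PDCD6-AHRR* are named for their overlap, and *Nqo1* in rBMECs and *ARNT2*, *ARNTL* and *NFE2L2* in hBMEC-like cells were added after their values were seen. Results of the chaperone genes in the pathway list are not reported here.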

Additional observations from a re-analysis of the deposited data

Results flagged for a closer look

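In rBMECs, where groups have 4 libraries, 12 sets of values were checked for a library far from the rest, and 4 had one, where chance alone gives about 1 in 20. All 4 were high-shear replicate 1. It held *Ahr* at 158.2 CPM against 35.3 to 41.0 CPM in the other high-shear libraries, *Ahrr* at 21.1 CPM against 7.65 to 8.98 CPM, *Cyp1b1* at 935.8 CPM against 393.5 to 458.5 CPM, and *Tiparp* at 218.6 CPM against 87.9 to 109.4 CPM. These 4 values come from the same library and are not independent.

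Responses to shear differed between models in 3 tests. *CYP1A1* had a log2 response in hBMEC-like cells that differed from that in hECs by -0.48 and from that in hCECs by -1.06, and *TIPARP* had one in hBMEC-like cells that differed from that in hECs by 0.48.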

How the results depend on the processing

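Over 1044 alternative values of single members, the call was kept in 999, lost in 27 and gained in 18, and 60 changed sign, none of them with a call on either side. With shear, 2 members were called in hECs, 1 in hCECs, 1 in hBMEC-like cells and 0 in rBMECs. Without the replicate block, which follows the pairing of the study, 0 were called in each of the 4 models, and 0 interactions with a member were called in any comparison, while a replicate block on the levels changed no count of members. With library totals only, 2 were called in hCECs and 2 in hBMEC-like cells, 1 interaction between hCECs and hECs (main 0) and 1 level between hCECs and hECs at low shear (main 0). Without the filter on low counts, 0 were called in hCECs, 3 in hBMEC-like cells and 0 interactions between hBMEC-like cells and hCECs (main 1), and that interaction was also 0 with DESeq2 size factors. DESeq2 with the block called 2 in hCECs. Leaving out single replicates gave 0 to 2 members in hECs, 0 to 2 in hCECs and 1 to 2 in hBMEC-like cells, where the 1 called without replicate 2 was *CYP1A1* and not *TIPARP*. It gave 0 to 1 interactions between hCECs and hECs, 1 to 3 between hBMEC-like cells and hECs, 0 to 2 between hBMEC-like cells and hCECs, and 0 to 1 levels between hCECs and hECs at low shear. The cause of these changes was not tested.

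Counts over all genes also moved. With shear in hECs 2494 genes were called, 1295 without the block and 819 to 2517 with single replicates left out. In hCECs these were 484, 261 and 340 to 2161, and 267 without the filter. In hBMEC-like cells they were 2463, 7 and 1430 to 2040, and 1402 with DESeq2. In rBMECs 17 were called, 107 without the filter, 311 with DESeq2 and 0 to 190 with replicates left out. Interactions between hCECs and hECs numbered 125, with 202 by totals, 40 without the block and 5 to 442 with replicates left out. Between hBMEC-like cells and hECs they were 2439, 1022 without the block and 1401 to 2789, and between hBMEC-like cells and hCECs 819, 141 and 57 to 2029. Those of rBMECs were 524, 212 and 119 to 779 against hECs, 201, 46 and 63 to 233 against hCECs, and 5, 2 and 0 to 144 against hBMEC-like cells, with 8 by totals and 9 without the filter. Levels between hCECs and hECs at low shear numbered 654, with 1137 by totals, 413 with a block and 203 to 3220 with replicates left out.

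Library totals moved the median log2 value of all genes by -0.11 for shear in hCECs, and by -0.15, 0.16 and 0.13 for interactions of hCECs with hECs, of hBMEC-like cells with hCECs and of rBMECs with hCECs. For levels, library totals moved that median by -0.09 to 0.23. They moved the share of calls that were higher from 64.8% to 49.0% for interactions of hCECs with hECs, and for levels of hCECs against hECs from 33.2% to 46.2% at low and from 49.5% to 35.2% at high shear. In rBMECs, where the pairs spread widely, the 95% intervals of the same genes held the changes called in hECs and hBMEC-like cells, so changes of that size were not detectable.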
